A study of Mus musculus with 16 samples.

Results

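The miR-181 family of microRNAs (miRNAs) was examined in the prefrontal cortex of PS19 mice and their wild-type (WT) littermates. The members were 6 rows of the table of non-coding RNAs (ncRNAs), each matched by the name of a mature miR-181 product, namely mmu-miR-181a-5p, mmu-miR-181b-5p, mmu-miR-181c-5p, mmu-miR-181d-5p, mmu-miR-181a-1-3p and mmu-miR-181c-3p (the prefix for mouse is left out from here), out of 18488 rows in all and 1241 rows of mature miRNAs. The rule was a list of names with no threshold on a measured value. Another 10 rows, 4 of them named for other mature miR-181 arms and 6 for hairpins, were not in that list and are given beside the members.

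The study sequenced cortical small RNA of 8 PS19 and 8 WT animals, as a view of ncRNAs in a mouse model of tauopathy. PS19 mice (PS19+/- in the labels) were heterozygous for a transgene in which the mouse prion promoter drives a mutant human tau gene (MAPT), on a C57BL/6 and C3H background, and the WT mice were their littermates without it, bred in the same colony. Animals of both groups were in the tenth month of life, with males and females in equal number per group, and the labels did not tie sex to a library. Each library came from prefrontal cortex of a perfused mouse, and the labels name no treatment. The libraries held 13.2 to 23.1 M reads, of which mature miRNAs made up 14.8% to 32.0% of the normalized signal. Library codes began with G in all 8 PS19 libraries and in 2 WT libraries (replicates 2 and 4), with F in 4 WT libraries and with A in 2, and the meaning of the letter was not stated.

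A miRNA is cut from a hairpin transcript, first in the nucleus and then in the cytoplasm, and one of the arms, named 5p or 3p after its side of the hairpin, is loaded into an Argonaute protein and pairs with messenger RNAs mainly through its seed, the bases from position 2 to position 8. The miR-181 family is abundant in brain and in developing lymphocytes, where miR-181a is known for setting the sensitivity of the T cell receptor. In neurons, miR-181a is known to act on mRNA of an AMPA-type glutamate receptor subunit. The 5p arms are the guide strands of the family and the 3p arms are usually the minor products.

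The mature sequences are shown because the shared seed defines the family and the few other bases are all that tells the members apart. They were taken from RefSeq (GRCm38.p6, the same build as mm10) and run 5′ to 3′, with the seed in capitals.
miR-181a-5p: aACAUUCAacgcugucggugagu
miR-181b-5p: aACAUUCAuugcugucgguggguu
miR-181c-5p: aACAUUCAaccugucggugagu
miR-181d-5p: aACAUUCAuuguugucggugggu
miR-181a-1-3p: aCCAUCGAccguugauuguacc
miR-181c-3p: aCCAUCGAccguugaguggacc
miR-181a-2-3p: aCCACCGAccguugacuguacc
All 6 members matched an entry there. The 4 arms on the 5p side had the seed ACAUUCA, and among 1679 mature mouse miRNAs in that table no other name had it. The 2 members on the 3p side shared the seed CCAUCGA, also with no other name. Counted from the 5′ end, miR-181a-5p and miR-181b-5p differed by A9U, C10U and A21G over their shared length, and miR-181b-5p and miR-181d-5p by C12U. miR-181b-5p, with 24 bases, also runs 1 base further at its 3′ end than the other two, with 23. miR-181c-5p is 22 bases long and shared its first 10 and last 12 bases with miR-181a-5p, which has 23. How the study's pipeline treated reads that match more than 1 of these sequences was not given in the sources used here, so levels of arms this close are uncertain where reads were shortened.

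The family is encoded by 3 clusters of paired hairpins. Mir181a-1 (chr1:137966455-137966541) and Mir181b-1 (chr1:137966639-137966718) lie on the plus strand 97 bases apart, in an exon of the lincRNA A430106G13Rik and an intron of Gm4258 on the same strand and an intron of Gm26936 on the other. Mir181a-2 (chr2:38852735-38852810) and Mir181b-2 (chr2:38853830-38853918) lie on the plus strand 1019 bases apart, in an intron of the nuclear receptor gene Nr6a1, which is on the opposite strand, and Mir181b-2 also overlaps an exon of Gm44144 there. Mir181d (chr8:84178716-84178787) and Mir181c (chr8:84178873-84178961) lie on the minus strand 85 bases apart, in an intron of Nanos3 on the same strand. All positions are on GRCm38. The mature sequences of miR-181a-5p and miR-181b-5p are each encoded at 2 loci, so that their rows cannot be assigned to a locus.

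Levels are given as normalized counts, that is reads divided by 1 size factor per library. The members spanned more than 3 orders of magnitude, and their order was the same in 16 of 16 libraries. mmu-miR-181a-5p had the highest mean over the 16 libraries, 33830 ± 16351 (SD, n = 16), and ranked 25 among the 1241 mature miRNAs. mmu-miR-181b-5p followed with 17813 ± 7213 (rank 34) and mmu-miR-181d-5p with 6152 ± 2432 (rank 61). The star strand miR-181a-1-3p had a mean of 160.8 ± 62.9 (rank 220), the guide arm miR-181c-5p only 42.7 ± 20.6 (rank 320) and miR-181c-3p 20.2 ± 11.5 (rank 380). Each member was above the next in all 16 libraries, with ratios of means of 1.90 for miR-181a-5p over miR-181b-5p, 2.90 for miR-181b-5p over miR-181d-5p, 38.3 for miR-181d-5p over miR-181a-1-3p, 3.77 for miR-181a-1-3p over miR-181c-5p and 2.12 for miR-181c-5p over miR-181c-3p. The mature products are 22 to 24 bases long, and how well the library kit captured each of them was not measured. The neighbours of the members in the order of all mature miRNAs lay within 1 SD of them. For miR-181a-5p these were miR-151-3p (36358) and miR-125a-5p (33773), the former higher in 8 of 16 libraries and the latter lower in 5 of 16.

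The summed 5p arms made up 0.805% to 2.52% of the mature miRNA signal in PS19 (median 1.30%) and 0.770% to 1.71% in WT (median 1.23%). The highest share was in PS19 replicate 7 and the lowest in WT replicate 3, and the ranges of the genotypes overlapped. Within the sum, miR-181a-5p took a mean of 57.2% ± 4.39, miR-181b-5p 31.8% ± 4.02, miR-181d-5p 11.0% ± 1.75 and miR-181c-5p 0.0752% ± 0.0255 (SD, n = 16). The seed pool of the family in this tissue was thus carried by 3 arms in each library, and miR-181c-5p was a trace component. The summed 5p level differed by 0.09 on the log2 scale between PS19 and WT (difference of group means), and by 0.14 as a share of mature miRNA, less than the SD within either group. The difference in share rested on single libraries, at 0.0089 without PS19 replicate 7 and 0.24 without PS19 replicate 6. These sums are a description and were not tested.

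**Figure D1:**
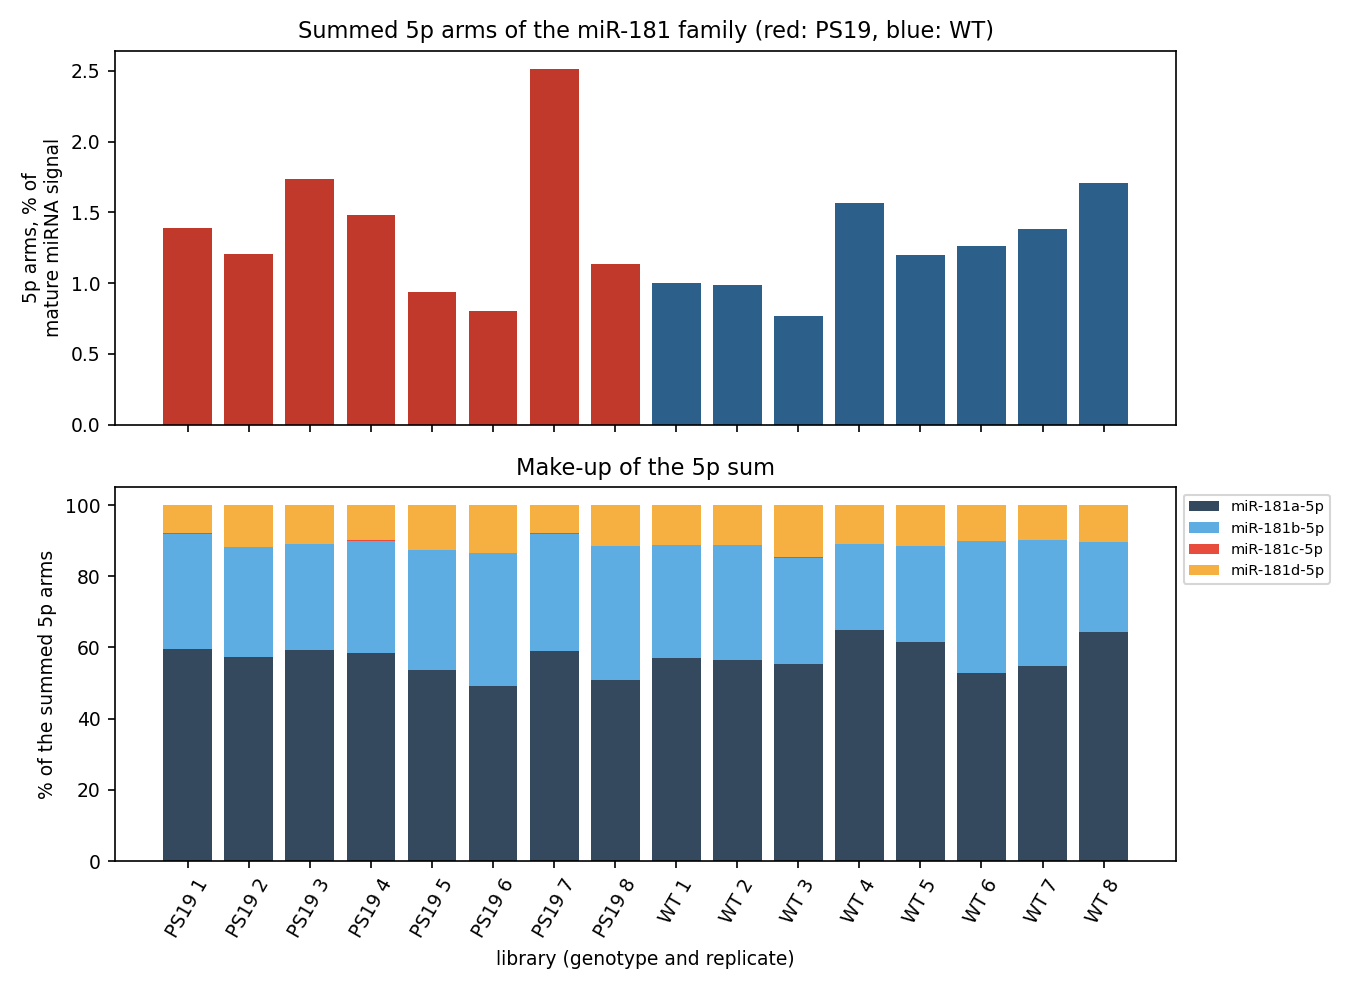
Upper panel, summed normalized counts of the 4 arms on the 5p side as a percentage of the mature miRNA signal in each library, PS19 in red and WT in blue; lower panel, percentage of that sum from each arm. Bars start at 0, the upper bars run from 0.770% to 2.52%, and miR-181c-5p, with a mean of 0.0752%, is too thin to be seen in most bars.

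None of the 6 members passed limma's test of PS19 against WT on log2(normalized count + 1), at an unadjusted or an adjusted p-value. Of the 6024 rows tested, those with a mean of at least 5, 241 (4%) had an unadjusted p-value under 0.05, as did 15 of 521 mature miRNAs (2.88%). After Benjamini-Hochberg adjustment over all rows tested, limma called 0 rows (0%) and edgeR on recovered reads called 0. DESeq2, whose own filter left some low rows out of the adjustment, called 15, with no member among them. The members' median log2 difference was −0.02, with 3 higher and 3 lower in PS19, beside −0.02 for all rows and −0.13 for mature miRNAs. The labels do not say that replicates came from separate mice, but the methods give 8 mice per group. In bulk tissue, fewer cells of a type and less RNA per cell cannot be told apart.

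miR-181a-5p, the most abundant member, had normalized counts from 13632 to 64064 in PS19 with a median of 35129, and from 16879 to 49475 in WT with a median of 29168. Of the PS19 libraries, 2 lay above every WT library and 2 below every one, so that the PS19 range enclosed the WT range. The log2 difference, PS19 minus WT, was 0.02 (95% interval −0.68 to 0.73, adjusted p = 0.9998 by limma).

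miR-181b-5p had normalized counts from 10046 to 32172 in PS19 with a median of 19252, and from 10909 to 21284 in WT with a median of 14557. The PS19 libraries fell on both sides of the WT range, with 4 above every WT library (replicates 1, 3, 4 and 7), 3 below every one (replicates 5, 6 and 8) and only replicate 2 within it. This split held for the deposited scaling. Per 1 M mature miRNA signal, PS19 ran from 3003 to 8263 and WT from 2283 to 4885. On that scale only PS19 replicates 3 and 7 lay above every WT library, and none lay below. The SD on the log2 scale was 0.72 in PS19 and 0.34 in WT, and 0.46 and 0.37 once libraries were scaled to their mature miRNA total. The difference of these SDs was not tested. The log2 difference in level was 0.24 (95% interval −0.31 to 0.78, adjusted p = 0.9998 by limma).

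miR-181d-5p had normalized counts from 3080 to 11847 in PS19 (median 5765) and from 3024 to 8253 in WT (median 6491). The groups overlapped, with PS19 replicate 3 highest and WT replicate 7 lowest of all. The log2 difference was 0.01 (95% interval −0.57 to 0.60, adjusted p = 0.9998 by limma).

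miR-181c-5p, the low guide arm from the same cluster as miR-181d-5p, rested on 16 to 80 reads per library. It had normalized counts from 11.7 to 82.5 in PS19 (median 38.1) and from 17.0 to 73.4 in WT (median 49.4). In PS19, 1 of 8 libraries, replicate 3, lay above the WT median, and that library was also the highest of all 16. The log2 difference was −0.31 (95% interval −1.05 to 0.43, adjusted p = 0.9998 by limma), and within libraries coded G it was −0.68 (95% interval −1.81 to 0.44), with 2 WT libraries left.

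Neither 3p member passed the test. miR-181a-1-3p, the passenger arm of the chromosome 1 hairpin, ranged from 90.0 to 237.2 in PS19 (median 149.8) and from 87.7 to 283.6 in WT (median 159.2), a log2 difference of −0.05 (95% interval −0.63 to 0.53). miR-181c-3p, with 9 to 54 reads per library, ranged from 7.31 to 25.6 in PS19 (median 18.4) and from 8.49 to 50.4 in WT (median 19.0), a log2 difference of −0.17 (95% interval −0.90 to 0.55). For both, the 2 highest libraries were WT replicates 4 and 8.

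**Figure D2:**
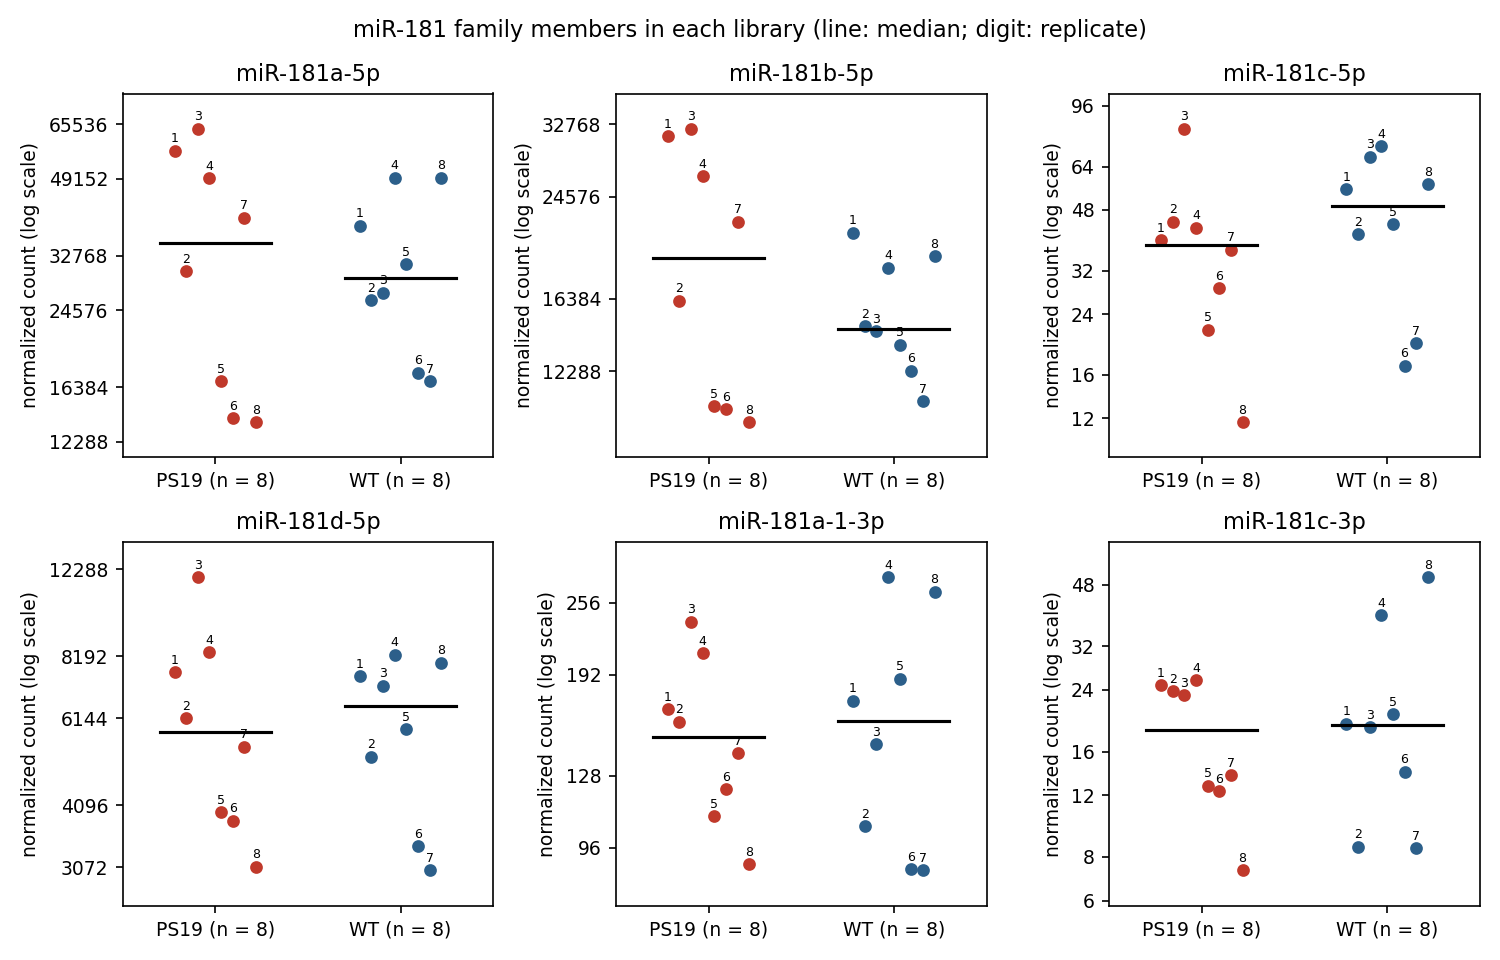
Normalized counts of the 6 members in each library on log axes, PS19 in red and WT in blue, with the replicate number at each point and the group median as a line. The groups overlap in every panel; PS19 replicate 8 is the lowest PS19 library in all 6 panels and PS19 replicate 3 the highest in 5 of them, miR-181c-3p being the exception.

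The standard errors of these differences ran from 0.26 for miR-181b-5p to 0.36 for miR-181c-5p on the log2 scale. Scaled to the mature miRNA total, the differences were 0.08 for miR-181a-5p, 0.29 for miR-181b-5p, −0.26 for miR-181c-5p, 0.07 for miR-181d-5p, 0.0036 for miR-181a-1-3p and −0.13 for miR-181c-3p. Within libraries coded G, miR-181a-5p was at −0.24 and miR-181d-5p at −0.18, the opposite sign to the values over all libraries, and neither was past the threshold. Genotype and code letter cannot be fully told apart, since no PS19 library was coded F or A.

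**Figure D3:**
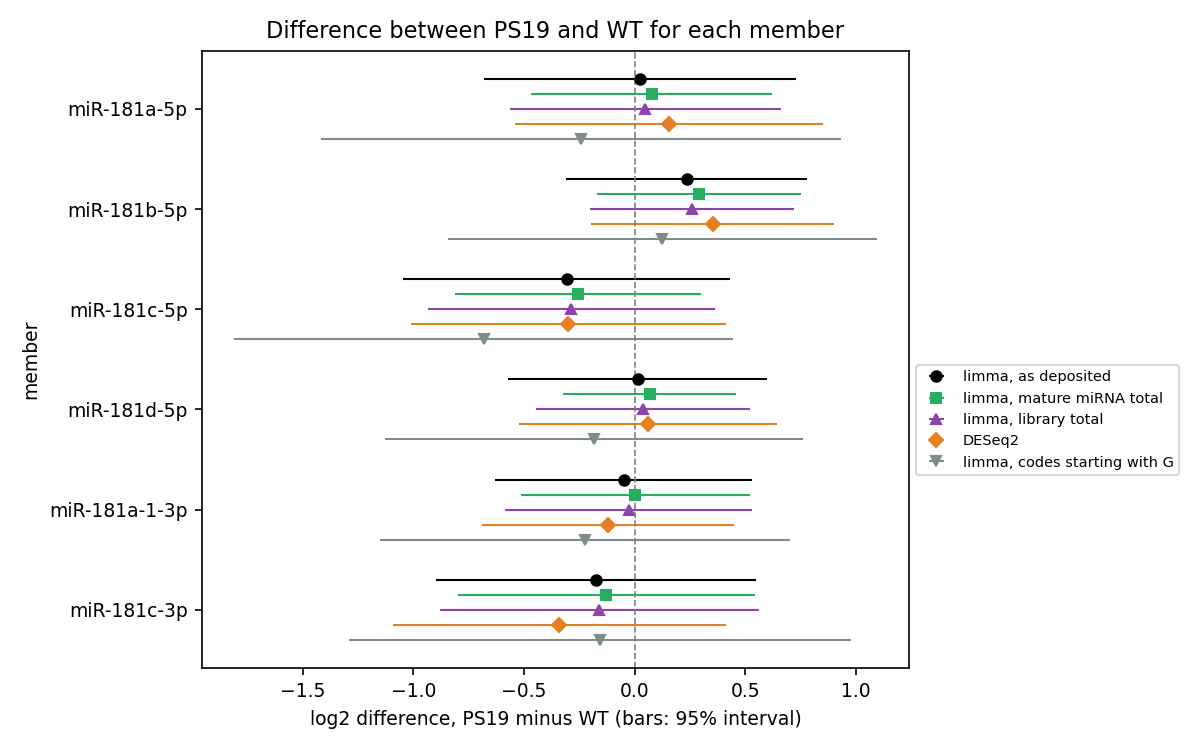
Log2 differences, PS19 minus WT, of the 6 members with 95% intervals, from limma on the deposited values, on values scaled to the mature miRNA total or the library total, on libraries coded G, and from DESeq2 on recovered reads. Every interval crosses 0; miR-181b-5p is above 0 and miR-181c-5p below 0 in each of the 5 settings.

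The members were next compared with each other within libraries, as the log2 ratio of (normalized count + 1). The added 1 leaves a small dependence on scaling, most for the low miR-181c arms. The 6 ratios were tested by a two-sided exact permutation test over the 12870 assignments of 8 and 8 libraries. None passed after adjustment over the 6. The ratio of miR-181d-5p to miR-181c-5p, arms of neighbouring hairpins on chromosome 8, had a median of 164.8 in PS19 and 134.6 in WT, with 7 of 8 PS19 libraries above the WT median. Its range was 134.0 to 263.2 in PS19 and 104.5 to 198.9 in WT, so the groups overlapped. The log2 difference was 0.32 (95% interval 0.01 to 0.63, exact permutation p = 0.0449, adjusted p = 0.269), and without PS19 replicate 8 it was 0.24 (exact permutation p = 0.0861).

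miR-181c-5p over miR-181a-5p was lower in PS19 by a log2 difference of −0.33 (95% interval −0.82 to 0.16, exact permutation p = 0.171, adjusted p = 0.343), with 4 PS19 libraries below every WT library. miR-181b-5p over miR-181a-5p differed by 0.21 (95% interval −0.09 to 0.51, exact permutation p = 0.153, adjusted p = 0.343). The 2 PS19 libraries with the highest ratio of miR-181b-5p to miR-181a-5p, replicates 6 and 8, were among the 3 with the lowest level of both arms. miR-181d-5p over miR-181a-5p differed by −0.01 (exact permutation p = 0.955), and the arm ratios miR-181a-1-3p over miR-181a-5p by −0.07 (exact permutation p = 0.724) and miR-181c-3p over miR-181c-5p by 0.13 (exact permutation p = 0.646).

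**Figure D4:**
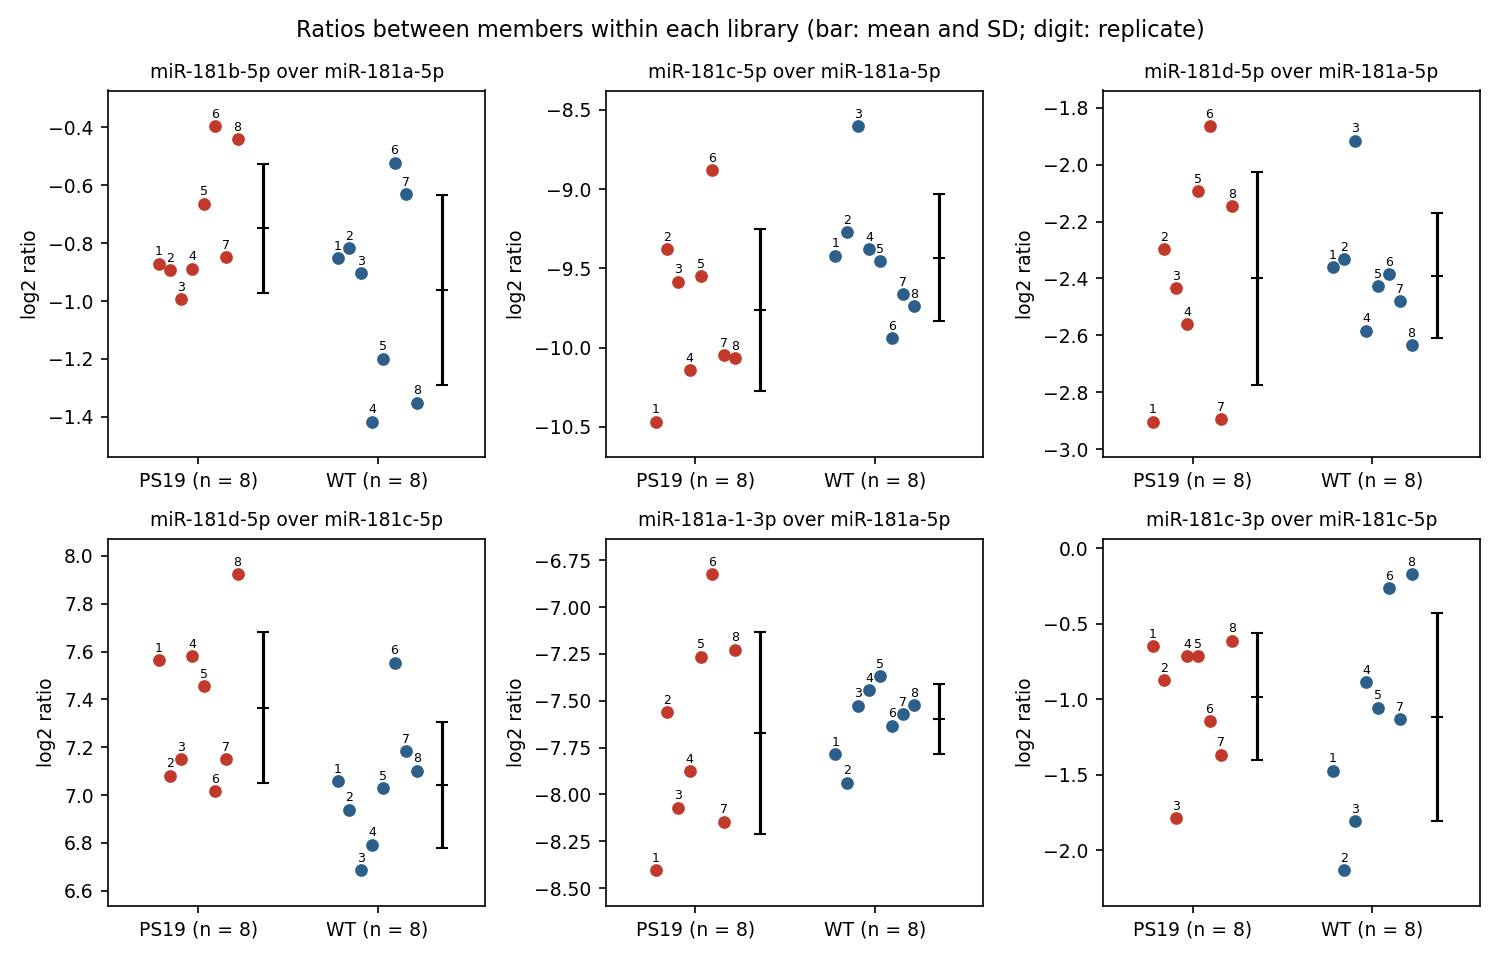
Log2 ratios between members within each library, with the mean and SD of each group as a bar beside its points. The ratio of miR-181d-5p to miR-181c-5p had a difference of group means of 0.32 and the smallest exact permutation p of the 6 (0.0449, adjusted p = 0.269), and the groups overlap in each panel.

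Rows for arms and hairpins that belong to a single locus gave different pictures of which copy was read. Among 3p arms, miR-181a-1-3p (chromosome 1) had 2628 reads in the 16 libraries and miR-181a-2-3p (chromosome 2) had 7, and miR-181b-1-3p had 195 and miR-181b-2-3p 1. miR-181b-2-3p had 0 reads in PS19, where a count of 0 allows up to 3 reads, or 0.0901 per 1 M mature miRNA reads, for counting error only. The rows named for a whole hairpin had the opposite order for miR-181a. mir-181a-2 had a mean normalized count of 160.0 and mir-181a-1 of 7.68, with mir-181a-2 higher in 16 of 16 libraries. For miR-181b the hairpins were closer, with 531 reads for mir-181b-1 and 381 for mir-181b-2, mir-181b-1 being higher in 16 of 16. How reads were divided between arm and hairpin rows was not given in the sources used here.

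The 2 hairpins of miR-181a are shown because the read counts of their 3p arms were so far apart, with both arms in capitals, 5′ to 3′ (RefSeq, GRCm38.p6). The 5p arms are identical, and the 3p arms differ by U5C and U16C, counted from the 5′ end of miR-181a-1-3p.
Mir181a-1: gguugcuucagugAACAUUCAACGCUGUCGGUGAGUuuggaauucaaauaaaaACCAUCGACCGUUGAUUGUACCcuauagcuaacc
Mir181a-2: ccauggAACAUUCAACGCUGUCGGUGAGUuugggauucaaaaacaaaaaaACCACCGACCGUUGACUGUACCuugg

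In the chromosome 8 cluster the guide arms were far apart although the hairpins lie 85 bases from each other. miR-181d-5p had 98793 reads in all and miR-181c-5p 689. The arms of a hairpin were also unequal. miR-181d-5p stood beside 30 reads of miR-181d-3p, whereas miR-181c-5p stood beside 326 reads of miR-181c-3p, so that the share of the 3p arm was far higher at the miR-181c hairpin. Of the 10 rows outside the 6 members, 6 had a mean of at least 5 and were tested, and none had an unadjusted p-value under 0.05.

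**Figure D5:**
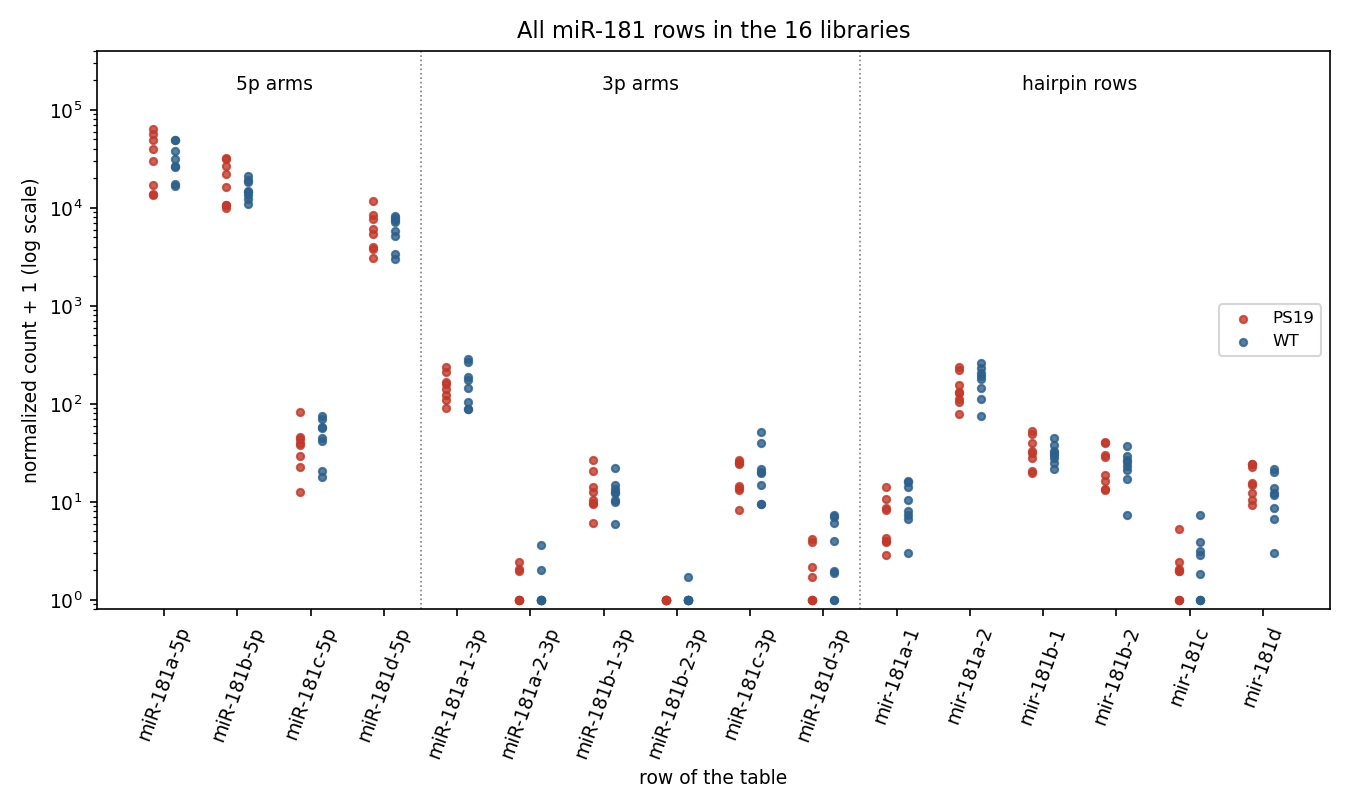
Normalized count plus 1 (log axis) of all 16 miR-181 rows in each library, PS19 in red and WT in blue, grouped into 5p arms, 3p arms and hairpin rows. miR-181a-5p, miR-181b-5p and miR-181d-5p lie at 3024 or more in each library, miR-181a-2-3p and miR-181b-2-3p at or near 0, and mir-181a-2 above mir-181a-1.

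Across the 16 libraries the levels of the members moved together. Pearson correlations of their log2 levels ran from 0.62 for miR-181b-5p and miR-181c-3p to 0.94 for miR-181a-5p and miR-181b-5p (n = 16, description only), and from 0.15 to 0.88 once each library was scaled to its mature miRNA total. The points share library, depth and scaling, and the level of each member correlated with the mature miRNA total at 0.62 to 0.87. The residual SD of the members was 0.56 to 0.78 on the log2 scale, beside a median of 0.71 for the 521 mature miRNAs tested, and 0.30 to 0.60 beside 0.48 once scaled to the mature miRNA total.

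Among 254 mature miRNAs outside the family with a mean of at least 100, those whose pattern over the 16 libraries was most like a member's were as follows, as a description. For miR-181a-5p they were miR-101a-3p (r = 0.94), miR-21a-5p (0.94) and miR-125b-5p (0.92). When libraries were scaled to the mature miRNA total, the first 3 were miR-125b-5p (0.89), miR-21a-5p (0.89) and miR-124-3p (0.88). For miR-181b-5p they were miR-210-3p (0.94), miR-338-5p (0.93) and miR-125b-5p (0.89), and the scaled values put miR-338-5p first (0.88) and miR-219a-2-3p second (0.85). For miR-181d-5p they were miR-21a-5p (0.97), miR-192-5p (0.97) and miR-30e-5p (0.96), of which only miR-21a-5p stayed in the first 3 when scaled, beside miR-16-5p and miR-27b-3p. For miR-181c-5p they were miR-30e-5p (0.94), miR-27b-3p (0.94) and miR-30d-5p (0.92). Both 3p members had miR-16-5p and miR-24-3p among their first 3, at 0.95 and 0.95 for miR-181a-1-3p and 0.90 and 0.88 for miR-181c-3p. The median correlation with the 254 miRNAs was 0.50 to 0.72 as deposited and near 0 (−0.0039 to 0.07) once scaled.

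miR-219a-2-3p and miR-338 are known for their place in oligodendrocytes. The summed level of the oligodendrocyte markers (miR-219a-2-3p and miR-338-3p, both of 2 measured) ran from 18522 to 52332 in PS19 with a median of 36705, and from 13365 to 46513 in WT with a median of 23934. Neither passed the test between genotypes, with log2 differences of 0.40 for miR-219a-2-3p and 0.19 for miR-338-3p (adjusted p = 0.9998 for each by limma). Their part in the level of miR-181b-5p was not tested. Markers of other cells were also among the miRNAs most like a member. These were miR-124-3p (neurons) for miR-181a-5p when scaled, and miR-21a-5p (microglia and immune cells) for miR-181a-5p and miR-181d-5p. Their part was not tested either. Neuronal miRNAs were abundant in each library, with a summed level of 301712 to 1041664 for 5 markers. miR-124-3p, 1 of these 5, had a mean of 11714, so that most of the sum came from other markers. Of 24 markers tested in 9 lists for cell types and tissues, only miR-155-5p, an immune-cell miRNA, had an unadjusted p-value under 0.05, with a log2 difference of 0.78 (adjusted p = 0.9998 by limma), and 0 passed adjustment. Among all rows tested, 4% had such an unadjusted p-value. Only 3 of 6 markers in the microglia and immune list, and 1 of 2 for red blood cells, had a mean of at least 5 and were tested.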

How the data were processed

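Prefrontal cortex libraries of small RNA, 8 from PS19 and 8 from WT mice, were grouped by the genotype in the labels and numbered by the replicate in the titles. Per the submitters' processing notes, the authors used STAR 2.5.3a and DESeq2 1.42.1 with the build mm10, and the methods add that STAR ran in COMPSRA, a small RNA pipeline. The deposited table gave, per row, a normalized signal, that is read counts the authors divided by 1 size factor per library, and the authors' own comparison (mean, log2 fold change, standard error, Wald statistic and p-values), which was not used. No other per-library column was left out (0). Whole reads were recovered by dividing by the smallest step: 100% of values were whole within 0.02 of a read, but in 2 libraries, WT replicates 4 and 6, the step was nearly 1 and the evidence is weaker.

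Rows with a mean of at least 5 were tested with limma 3.58.1 in R 4.3.3 (lmFit, eBayes with trend) on log2(value + 1), with genotype as the only term and Benjamini-Hochberg adjustment over 6024 rows. Fold changes on this scale understate the change of low rows. Recovered reads were tested with DESeq2 1.42.0, which called 15 rows, and the edgeR 4.0.16 quasi-likelihood test, which called 0. The adjustment in DESeq2 left out some low rows by its own filter, so it covered fewer rows than the others. Ratios between members were tested by two-sided exact permutation computed in numpy 2.4.6, and exact rank tests used scipy 1.17.1. Scripts were tested on simulated data. Sequences came from RefSeq and overlapping genes from GENCODE M21, both on GRCm38. The rows named are the 6 members, the other 10 miR-181 rows, the 3 mature miRNAs with the highest correlation with each member, and the mature miRNAs next to each member in level. Marker lists covered neurons, microglia and immune cells, oligodendrocytes, vessels, red blood cells, choroid plexus, olfactory epithelium and bulb, lymphocytes, and liver and muscle. Of these lists, only the microglia and immune list held a row with an unadjusted p-value under 0.05. The members and lists were chosen with earlier results of these data known. Within-group library pairs differed beyond sampling noise (chi-square per degree of freedom 17.1 to 282.4 over 56 pairs). Depth was 13.2 to 23.1 M reads per library, and intervals of counts cover counting error only. Alternatives were other scalings, filters, pseudocounts and tests, a term for the code letter, G-coded libraries, a replicate block and leaving out each library.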

Additional observations from a re-analysis of the deposited data

Results flagged for a closer look

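Of 38 group values examined for a sample far from the rest of its group, 3 stood out by Dixon's criterion, which chance meets in about 1 in 20 groups. In PS19 replicate 3, miR-181c-5p was at 82.5 normalized counts, while the next highest library of that genotype was at 44.4, so that the gap was 0.538 of the group's range. That library was the highest PS19 library for 5 of the 6 members. In WT replicate 3, miR-181d-5p made up 14.7% of the summed 5p arms, beside 11.5% in the next WT library, a gap of 0.662 of the range. The log2 ratio of miR-181d-5p to miR-181a-5p in the same library was −1.92, beside −2.33 in the next, a gap of 0.580 of the range, and rests on the same values.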

How the results depend on the processing

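None of the 6 members had an unadjusted or adjusted p-value under 0.05 in any of 13 alternative fits or in 16 fits that left out 1 library each, nor by an exact rank test. Some alternatives changed the sign of a difference that was itself not called. For miR-181a-5p the difference was −0.047 with array weights, −0.24 with the code letter as a term and within G-coded libraries, and −0.029 within G-coded libraries scaled to the mature miRNA total. For miR-181d-5p it was −0.032 with array weights and −0.18 with the code letter as a term and within G-coded libraries. For miR-181a-1-3p it was 0.0036 scaled to the mature miRNA total, and for miR-181c-3p 0.0405 within G-coded libraries scaled to that total, a setting chosen after seeing the data, which moved the median of all rows to 0.18. Leaving out 1 library gave −0.13 to 0.19 for miR-181a-5p, 0.12 to 0.36 for miR-181b-5p, −0.49 to −0.10 for miR-181c-5p, −0.14 to 0.14 for miR-181d-5p, −0.16 to 0.0772 for miR-181a-1-3p, −0.33 to 0.0213 for miR-181c-3p, −0.05 to 0.23 for the summed 5p arms and 0.0089 to 0.24 for their share of mature miRNA. Among ratios, miR-181d-5p over miR-181a-5p was 0.0402 by the exact rank test and 0.0591 within G-coded libraries, and miR-181a-1-3p over miR-181a-5p 0.0179 within G-coded libraries. Leaving out 1 library gave 0.15 to 0.28 for miR-181b-5p over miR-181a-5p, −0.46 to −0.21 for miR-181c-5p over miR-181a-5p, −0.0855 to 0.063 for miR-181d-5p over miR-181a-5p, −0.19 to 0.0313 for miR-181a-1-3p over miR-181a-5p and −0.0122 to 0.27 for miR-181c-3p over miR-181c-5p. The difference in miR-181d-5p over miR-181c-5p was 0.24 to 0.39 without 1 library, with exact permutation p of 0.0126 to 0.0894, and the p was above 0.05 without any 1 of 10 libraries (PS19 replicates 1, 4, 5 and 8, WT replicates 1, 2, 3, 4, 5 and 8). It was 0.50 within G-coded libraries (exact permutation p = 0.0889). miR-181c-5p over miR-181a-5p reached an exact permutation p of 0.0401 without PS19 replicate 6. The cause of these shifts was not tested. The labels do not say that a replicate number marks a shared litter, batch or day, and the numbers were not taken as a pairing: deviations of same-numbered libraries correlated at 0.0446 to 0.456, all positive, with 6 and not all of 8 pairs over 0.1 and 2 of 8 libraries best with their own number. With the replicate block the ratio of miR-181d-5p to miR-181c-5p differed by 0.32 (exact permutation p = 0.102), no member was called, and the hairpin row mir-181d had an unadjusted p of 0.0454 (adjusted p = 0.709 by limma). Fewer than 100 reads per library for both miR-181c arms limits what their values can show.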

Other observations

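The hairpin rows were read apart from the mature arms. mir-181a-1 had normalized counts of 1.90 to 13.0 in PS19 (median 5.26) and up to 15.4 in WT (median 8.32), with a log2 difference of −0.56 (unadjusted p = 0.162, adjusted p = 0.9998 by limma), and −0.79 without WT replicate 6 (unadjusted p = 0.0395, adjusted p = 0.983). Within G-coded libraries it was −1.08 (unadjusted p = 0.0859, adjusted p = 0.9997). mir-181d had a log2 difference of 0.58 (unadjusted p = 0.113, adjusted p = 0.9998 by limma), and 0.66 when scaled to the mature miRNA total (unadjusted p = 0.0459, adjusted p = 0.9998). It was 0.33 without WT replicate 6 (unadjusted p = 0.292) and 0.26 within G-coded libraries (unadjusted p = 0.591). Its guide arm miR-181d-5p was at 0.01. The passenger arm miR-181d-3p had 8 reads in PS19 and 22 in WT, at 0 in 4 PS19 and 2 WT libraries, and lay below the mean of 5 needed for the test.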
